A study of Mus musculus with 2 samples.

Results

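The genes described here handle iron in the cell: 10 named genes for its uptake, storage, export and sensing, taken by symbol from the 43346 gene entries of the tables. They are Tfrc, Tfr2, Steap3 and Slc11a2 for uptake, Fth1, Ftl1 and Ncoa4 for storage and its release, Slc40a1 for export, and Aco1 and Ireb2 for sensing. The cells were G1E, an immortalised mouse line described in the labels as a Gata1- erythroid progenitor, from a male at postnatal age 0 days. Polyadenylated RNA was sequenced in 2 paired-end libraries, replicate 1 and replicate 2, which formed 1 group with no treatment, no time course and no cells with GATA1 restored. G1E cells lack the function of GATA1, the factor that drives red cell maturation, and they are 1 line. Although labelled as biological replicates, both libraries name the same cell sample, so SDs measure only the spread between these libraries, which may be technical. The p-values printed below are from an exact binomial test, which covers counting error only. Values written as mean ± SD are over both libraries (n = 2) and in TPM, the authors' abundance per length, scaled to a fixed total in each library, unless another unit is given.

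Most cells take up iron as transferrin, which binds the transferrin receptor TFR1 (gene Tfrc) and is carried into endosomes, where STEAP3 reduces the iron and DMT1 (gene Slc11a2) moves it into the cytosol. Iron not used at once is stored inside a shell of ferritin heavy (Fth1) and light (Ftl1) chains, from which NCOA4 can send it for release in lysosomes, while ferroportin (Slc40a1) is the exporter of iron from the cell. The iron regulatory proteins IRP1 (Aco1) and IRP2 (Ireb2) bind hairpins in mRNA, the iron-responsive elements, when iron is low. Binding in a 5' UTR blocks translation, as in ferritin mRNA, and binding in a 3' UTR protects the mRNA from decay, as in Tfrc mRNA. Developing red cells need iron for haem and are known for high TFR1 on their surface.

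Because the regulatory proteins read a hairpin that some transcripts of a gene carry and others lack, the elements found in the members are shown here; the capitals mark the bulged C and the 6-base loop. The reference transcripts (GENCODE M21, mm10) were searched on the sense strand for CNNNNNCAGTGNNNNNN, with at least 4 of 5 pairs (G-T pairs allowed) between the 5 bases on either side of the loop. A match is a description of these letters, and 5.16% of all 141767 transcripts hold one (0.628% with 5 of 5 pairs). Of the 10 genes, 5 had a match in at least 1 annotated transcript. That count is per gene and the percentages are per transcript, so they are not directly comparable.
Fth1: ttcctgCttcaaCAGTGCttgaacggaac
Ftl1: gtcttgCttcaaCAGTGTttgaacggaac
Slc40a1: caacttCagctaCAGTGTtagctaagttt
Slc11a2: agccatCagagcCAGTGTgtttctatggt
Tfrc A: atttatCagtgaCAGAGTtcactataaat
Tfrc B: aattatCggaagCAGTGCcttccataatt
Tfrc C: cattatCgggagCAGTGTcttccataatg
Tfrc D: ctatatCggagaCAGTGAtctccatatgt
Tfrc E: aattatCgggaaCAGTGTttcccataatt

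The Fth1 element lies in the 5' UTR at chr19:9982732-9982760 on the plus strand, and the Ftl1 element in the 5' UTR at chr7:45459779-45459807 on the minus strand. These ferritin elements share 26 of the 29 bases shown. The Slc40a1 element is also in the 5' UTR, at chr1:45925465-45925493 on the minus strand. All 3 had 5 of 5 pairs. The Slc11a2 element lies in the 3' UTR of 1 of its transcripts, at chr15:100395153-100395181 on the minus strand, and had 4 of 5 pairs. The Tfrc elements lie within 579 bases of its 3' UTR on the plus strand, A at chr16:32631160-32631188, B at chr16:32631219-32631247, C at chr16:32631598-32631626, D at chr16:32631663-32631691 and E at chr16:32631710-32631738, each with 5 of 5 pairs. Element A was found only with the looser loop CAGNGN, which 15.4% of all transcripts match with at least 4 of 5 pairs. Tfr2, Steap3, Ncoa4, Aco1 and Ireb2 had no match with the loop CAGTGN. With the looser loop Steap3 also had a match, of 4 of 5 pairs, in the 3' UTR of ENSMUST00000112641, a model that took 0.12% and 0.22% of its TPM.

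Depth was 61982642 counts in replicate 1 and 80658642 in replicate 2. Of all entries, 9150 were detected, defined as 1 TPM or more in both libraries. Gata1 RNA itself was at 48.02 and 46.61 TPM, and counts summed over a gene do not show whether its coding sequence is intact. The 6 genes listed as erythroid markers, Gata2, Klf1, Epor, Tal1, Gfi1b and Hba-a1, were all detected, with a summed level of 6210 and 6682 TPM. The largest parts of that sum were Hba-a1 (4164 ± 400 TPM) and Gata2 (1013 ± 102 TPM). Alas2, an erythroid gene outside this list, was not detected (0.435 ± 0.205 TPM). Of 8 macrophage markers, 1 was detected (Cd68, 2.25 ± 0.0566 TPM), Marco, Vcam1 and Cd163 had 0 counts, and the sum was 2.36 and 2.46 TPM. Of 3 hepatocyte markers none was detected, Alb and Ttr had 0 counts, and the sum was 0.4 and 1.47 TPM. Macrophages and hepatocytes are the cell types best known for high ferritin, and macrophages for high ferroportin. In bulk RNA, fewer cells expressing a gene and less RNA per cell cannot be told apart.

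All 10 genes were detected in both libraries, from percentile 8.3 of the detected genes (Ireb2) to the top of the range (Fth1). The order by mean TPM was Fth1, Ftl1, Steap3, Tfr2, Aco1, Tfrc, Slc11a2, Ncoa4, Slc40a1 and Ireb2. The 2 ferritin chains stood far above the others, 3 genes lay between 25 and 100 TPM, and the other 5 had means under 10 TPM. Among neighbours in this order, the values of Steap3 and Tfr2 overlapped between the libraries, and those of Tfrc spanned both Slc11a2 and Ncoa4. The remaining neighbours did not overlap, but the authors' interval bounds, which surround a posterior mean of TPM, did overlap in replicate 1 for Slc11a2 (4.23 to 5.27) and Ncoa4 (3.18 to 4.32), and for Ncoa4 and Slc40a1 (2.82 to 4.08). In replicate 2 the bounds of Ncoa4 (3.17 to 4.23) and Slc40a1 (2.78 to 3.83) overlapped too, and those of Slc11a2 (5.23 to 6.04) lay above both. With counts divided by 1 fixed length per gene, the longest annotated transcript, Steap3 (41.1) stood below both Tfr2 (97.7) and Aco1 (50.3).

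**Figure D1:**
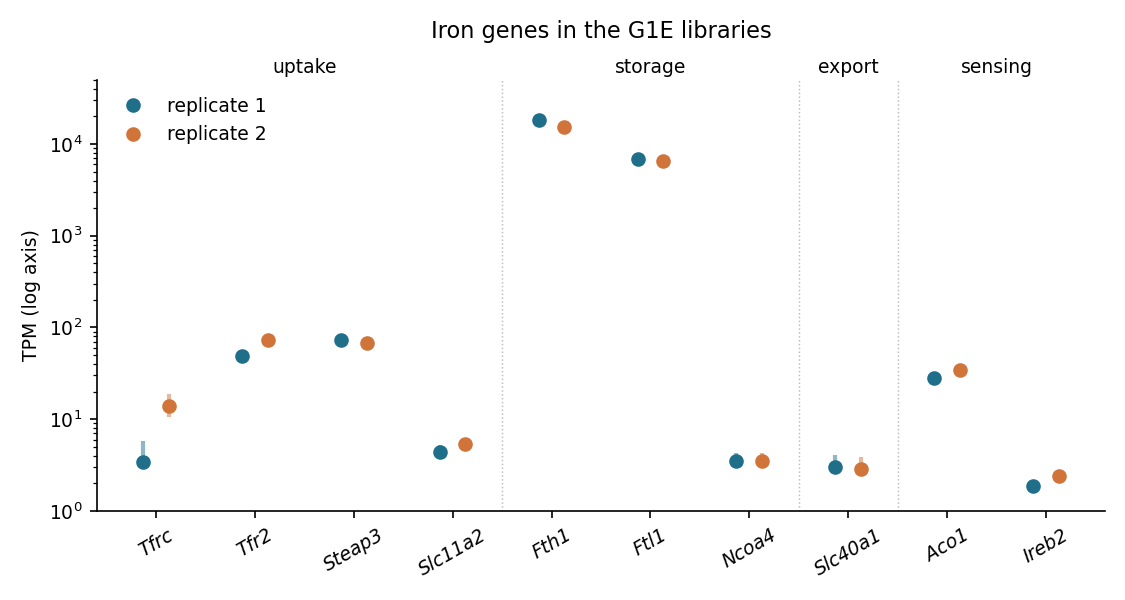
Level of each iron gene in TPM (log axis), grouped by role; points are the libraries (replicate 1 blue, replicate 2 orange) and thin bars the authors' interval bounds, which surround the posterior mean of TPM. Fth1 and Ftl1 have means of 16935 and 6682 TPM, 5 genes have means under 10, and Tfrc shows the widest gap between the libraries, 3.42 against 13.82.

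The first gene of uptake, Tfrc (ENSMUSG00000022797.11, chr16:32608920-32632794, plus strand), had a low and unequal level. It stood at 3.42 TPM in replicate 1 and 13.82 TPM in replicate 2, a mean of 8.62 ± 7.35 and percentile 34.0 of the detected genes. Replicate 2 was 4.04-fold higher in TPM, and 62 of the 9150 detected genes (0.678%) had a ratio between the libraries at least as large. The counts differed far less, at 821 in replicate 1 and 1825 in replicate 2, which is 1.57-fold once scaled for library size by TMM (edgeR's factor for each library's composition). The gap between these ratios came with the length by which the authors divided the counts: the effective length of the gene, averaged over its transcripts by abundance, was 4299 bases in replicate 1 and 1867 in replicate 2.

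The transcripts of Tfrc show where that length came from. The full-length coding model ENSMUST00000023486.10, 4890 bases long and carrying all 5 hairpins, had 785.74 of the expected counts in replicate 1 and 1678.14 in replicate 2. Its level was 2.96 and 5 TPM, yet its share of the gene's TPM was 86.7% and 36.2%. A model of only 166 bases, ENSMUST00000124243.1, had 0 counts in replicate 1 and 10 in replicate 2. Those 10 counts, divided by an effective length of 21.83 bases, made 6.48 TPM and 46.9% of the gene's TPM in replicate 2, but only 0.548% of its counts. Without models under 200 bases Tfrc was at 3.42 and 7.34 TPM, a 2.15-fold difference (an alternative chosen after seeing the data). A retained-intron model of 571 bases, ENSMUST00000137901.1, took 2% of TPM in replicate 1 and 8.68% in replicate 2, on 1.63 and 35.91 counts. Models under 200 bases weighed this much in few genes: 17 of the 9150 detected genes (0.186%) had 25% or more of their TPM on them in either library. Short models above that cut, such as the 571-base one, were not part of this count. Transcripts with a hairpin took 95.7% and 93.2% of the Tfrc counts. A coding model without one, ENSMUST00000120680.1 of 1860 bases, took 9.6% and 2.87% of TPM, on 31.47 and 47.99 counts.

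Tfr2 encodes the second transferrin receptor, which in erythroid cells associates with the erythropoietin receptor and in liver takes part in sensing of transferrin iron. The gene (ENSMUSG00000029716.9, chr5:137569840-137587481, plus strand) was at 48.79 TPM in replicate 1 and 73.48 TPM in replicate 2, a mean of 61.1 ± 17.5 at percentile 77.2. Its single annotated model had 7582 and 14436 counts over nearly the same effective length, 2782 and 2778 bases. Scaled counts were 1.35-fold higher in replicate 2. Tfr2 exceeded Tfrc per length in both libraries, by 14.3-fold (replicate 1) and 5.32-fold (replicate 2), and the log2 ratio was 3.12 ± 1.01. With counts divided by 1 fixed length per gene, the folds lay closer together at 15.4 and 13.2.

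Steap3, the ferrireductase of the transferrin cycle in erythroid cells, was near Tfr2 in TPM, and the libraries differed on which was higher. The gene (ENSMUSG00000026389.12, chr1:120190757-120272705, minus strand) was at 72.79 and 68.4 TPM, a mean of 70.6 ± 3.1 at percentile 79.9, from 6978 and 8985 counts. A pair of coding models made up nearly all of it. The 1288-base model ENSMUST00000140490.3 took 61.12% and 51.43% of TPM, and the 2752-base model ENSMUST00000112640.3 took 38.67% and 47.82%. The shorter model was the larger by TPM in both libraries and the smaller by counts (40.7% and 31.6%).

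Slc11a2 encodes DMT1, which moves ferrous iron out of the endosome. The gene (ENSMUSG00000023030.12, chr15:100387898-100425072, minus strand) was low, at 4.39 and 5.4 TPM (4.89 ± 0.714, percentile 22.2), from 781 and 1291 counts. Its mRNA ends in alternative ways, and 1 annotated model carries the hairpin printed above. That model, ENSMUST00000138843.3 of 4415 bases, had 358.04 and 681.78 counts and took 34.2% and 41.9% of TPM (38% ± 5.43). The coding model without the hairpin, ENSMUST00000023774.7 of 3025 bases, had 414.35 and 603.77 counts and took 58.65% and 54.99%. The form without a hairpin was thus higher per length in both libraries. By counts the hairpin form had 45.8% in replicate 1 and 52.8% in replicate 2, so the 2 units do not rank the forms alike in replicate 2. A retained-intron model without the hairpin, ENSMUST00000140535.1, took 5.45% and 0.72% of TPM, on 7.56 and 1.54 counts. The gene also has 3 models that start up to 2017 bases upstream, and all 3 had 0 counts in both libraries.

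**Figure D2:**
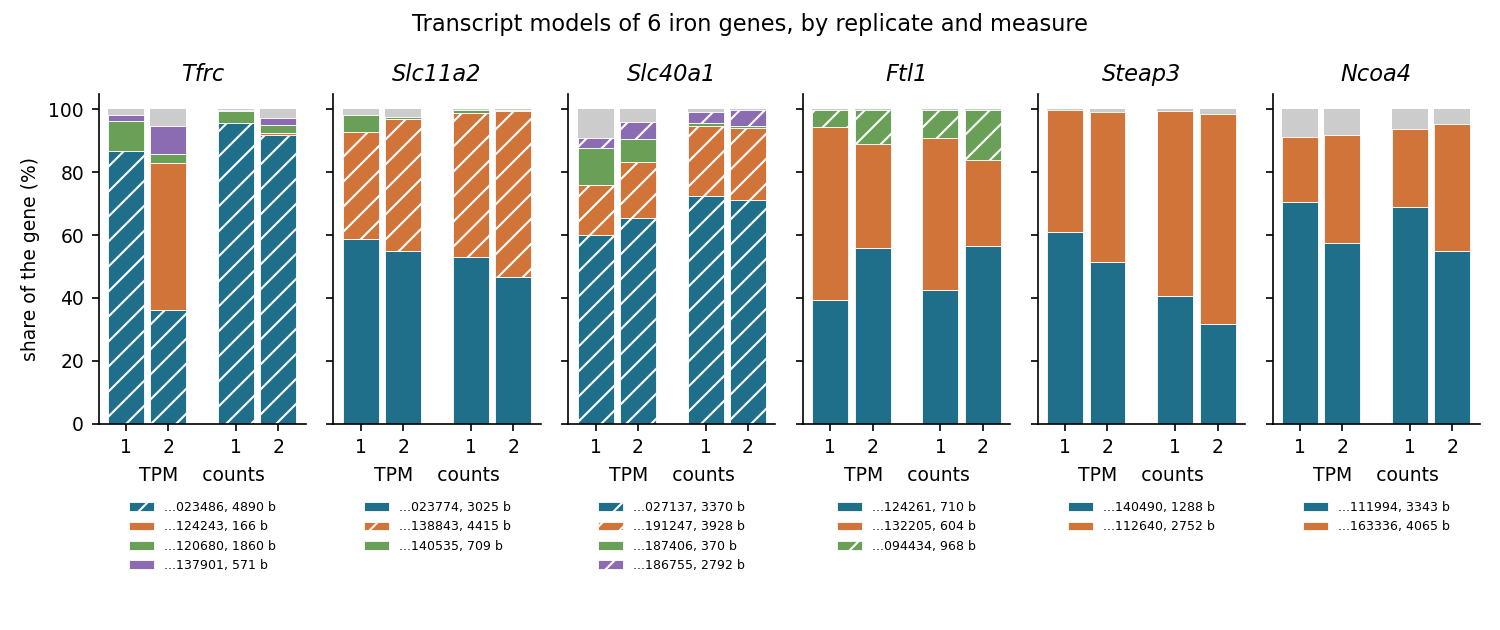
Share of each gene's TPM (left pair of bars) and of its expected counts (right pair) by transcript model, in percent, for the 6 genes with more than 1 model at 5% or more; 1 and 2 are the replicates, hatching marks models with a hairpin match, and grey holds all smaller models. For Tfrc the 166-base model fills 46.9% of TPM but 0.548% of counts in replicate 2, and for Ftl1 the unhatched models fill most of every bar.

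Storage gave the highest levels. Fth1 (ENSMUSG00000024661.6, chr19:9980598-9985098, plus strand), whose chain holds the ferroxidase centre that oxidises incoming iron, was at 18473.45 TPM in replicate 1 and 15396.95 TPM in replicate 2. Its mean of 16935 ± 2175 ranked 3 among all genes and made 1.85% and 1.54% of all TPM, from 745017 and 782135 counts on a single model. Ftl1 (ENSMUSG00000050708.10, chr7:45457944-45459884, minus strand), whose chain helps iron to nucleate in the shell, was at 6894.72 and 6468.41 TPM, a mean of 6682 ± 301 that ranked 14. Fth1 exceeded Ftl1 by 2.68-fold and 2.38-fold per length, a log2 ratio of 1.34 ± 0.12. Both chains were lower in replicate 2, and together they took 2.54% of TPM in replicate 1 and 2.19% in replicate 2.

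The single Fth1 model carries the 5' UTR hairpin, whereas the Ftl1 reads were mostly assigned elsewhere. The coding Ftl1 model with the hairpin, ENSMUST00000094434.6 of 968 bases, took 5.68% and 10.9% of the gene's TPM, on 18023.22 and 40900.18 expected counts. Most of the rest went to ENSMUST00000124261.3 (710 bases, 39.32% and 55.9%) and to ENSMUST00000132205.3 (604 bases, 54.89% and 33.09%). These were matched to M21 by gene and length alone, to a processed transcript and to a transcript with a retained intron. Their types and their lack of a hairpin are those of the matched entries. The 604-base model was the larger of the pair in replicate 1 and the 710-base model in replicate 2. The models overlap one another, the expected counts of Ftl1 were not whole numbers, and how well reads of a poly(A) library can be told apart among them was not tested. The hairpin share of Ftl1, 8.38% ± 3.68 of TPM, is therefore the authors' allocation of shared reads. Ferritin copies shared few counts: of 13 other entries named Fth or Ftl, 11 had 0 counts and the pseudogenes Ftl1-ps1 and Ftl2-ps were at 9.26 and 30.39 TPM in replicate 1 and 9.2 and 41.91 TPM in replicate 2, together 0.156% and 0.233% of the family's TPM.

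Ncoa4, the receptor that carries ferritin to the lysosome for breakdown, was low beside its cargo. The gene (ENSMUSG00000056234.10, chr14:32159865-32179855, plus strand) was at 3.48 and 3.49 TPM (3.49 ± 0.00707, percentile 16.7) from 635.68 and 824.75 expected counts. Its leading coding models were ENSMUST00000111994.5 (70.46% and 57.33% of TPM) and ENSMUST00000163336.3 (20.68% and 34.47%). The gene level matched more closely between the libraries than did the models within it.

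Slc40a1, the iron exporter ferroportin, was also low. The gene (ENSMUSG00000025993.6, chr1:45908068-45926523, minus strand) was at 2.99 and 2.89 TPM (2.94 ± 0.0707, percentile 13.6) from 448 and 605 counts. The gene is known for a second mRNA form, made from an upstream promoter in erythroid precursors and duodenum, that lacks the 5' UTR hairpin. Models with the hairpin took 79% and 88.9% of TPM (84% ± 7.02) and 98% and 99.1% of counts, led by the coding model ENSMUST00000027137.6 at 60.04% and 65.3% of TPM. A retained-intron model with the hairpin, ENSMUST00000191247.2, took 15.81% and 17.96%. Another of this kind, ENSMUST00000186755.1, took 3.41% and 5.63% of TPM on 15.11 and 30.44 counts. Its bulged C is base 1037 of the transcript, against base 96 in the leading model, so it also starts upstream. The 3 models that start up to 937 bases upstream and lack the hairpin took 19% and 11.1% of TPM, but only 7.93 and 5.52 counts, 1.77% and 0.912% of the gene. Those models are short, and the largest, ENSMUST00000187406.2 of 370 bases, rested on 4.41 and 3.27 counts for 11.68% and 7.19% of TPM. Every annotated model without the hairpin was 505 bases or shorter, and the only long coding model, of 3370 bases, carries it. Reads outside the short models could be assigned only to models with the hairpin. The hairpin shares therefore cannot show how much of the form without it was present.

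The sensors differed widely from each other. Aco1 (ENSMUSG00000028405.9, chr4:40143081-40198338, plus strand) encodes IRP1, which is a cytosolic aconitase when it holds an iron-sulphur cluster and binds RNA without it. It was at 27.99 and 34.45 TPM (31.2 ± 4.57, percentile 63.5), from 5759 and 8904 counts, 99.85% and 99.15% of its TPM on 1 coding model. Ireb2 (ENSMUSG00000032293.7, chr9:54863789-54912530, plus strand) encodes IRP2, which is controlled by degradation of the protein when iron is ample. It was the lowest of the 10 genes by mean, at 1.88 and 2.42 TPM (2.15 ± 0.382, percentile 8.3), from 596 and 967 counts on a single model. Aco1 RNA exceeded Ireb2 RNA 14.9-fold and 14.2-fold per length, a log2 ratio of 3.86 ± 0.05. That ratio moved little with the length used, at 14.6 and 14 with fixed lengths.

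The libraries were compared gene by gene with a two-sided exact binomial test on counts scaled by TMM, which compares these 2 libraries and not conditions, and knows counting error only. By this test, 5.76% of the 11636 genes tested (670) were called (3.91% higher in replicate 2 and 1.85% higher in replicate 1), meaning a Benjamini-Hochberg adjusted p under 0.05 and a difference of at least 2-fold. None of the 10 iron genes was called (0 of 10). At an unadjusted p under 0.05 and with no fold requirement there were 8 in the same exact test, against 67.1% of all tested genes. With the spread of these libraries (coefficient of variation 0.224), edgeR's negative binomial exact test gave 0 of 10 at both adjusted and unadjusted p under 0.05, against 0.971% and 5.1% of all tested genes. That spread was estimated from the difference between the same libraries that the test compares. Few calls were therefore built into it, and it is not an independent second test. Without the fold requirement 8 of 10 had an adjusted p under 0.05 in the exact binomial test, against 64.8% of all tested genes (32.4% in each direction). Of these, Tfrc (adjusted p = 1.45e-27), Tfr2 (1.80e-99), Slc11a2, Aco1 and Ireb2 were higher in replicate 2 in the exact test. Fth1, Ftl1 and Steap3 were higher in replicate 1, Fth1 by the most, with scaled counts in replicate 2 at 0.743 of those in replicate 1. Ncoa4 (adjusted p = 0.146) and Slc40a1 (0.547) did not pass the exact test. The median log2 ratio of scaled counts, replicate 2 over replicate 1, was 0.03 for the 10 genes and 0.01 for all tested genes, and the median size of that ratio was 0.18 and 0.27.

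**Figure D3:**
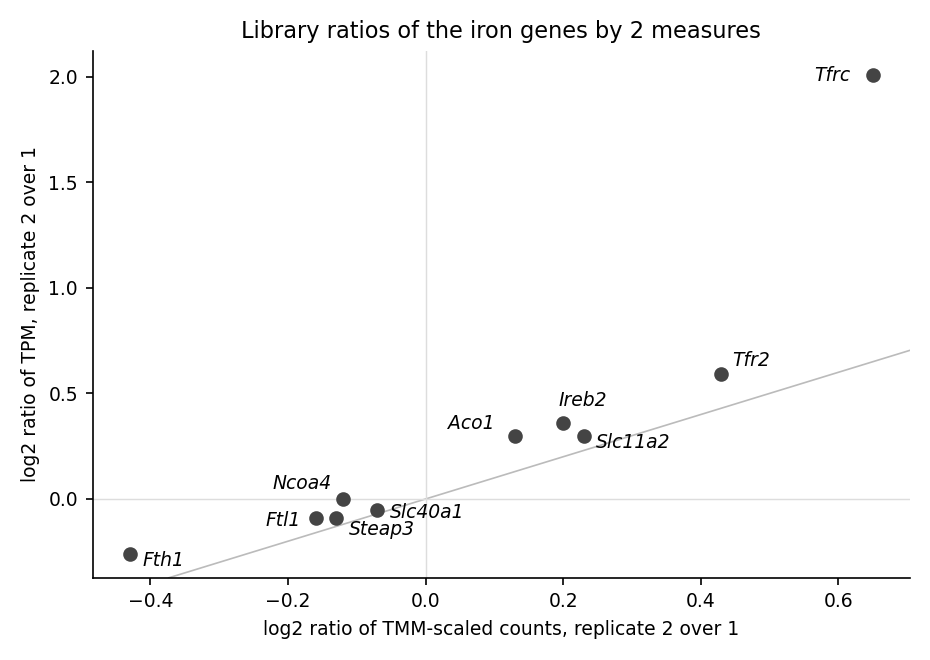
Log2 ratio of replicate 2 over replicate 1 for each iron gene, by TMM-scaled counts (horizontal) and by TPM (vertical); the diagonal marks equal ratios. Tfrc lies far from the diagonal (0.65 by counts, 2.01 by TPM), while the other 9 genes lie near it, between -0.43 and 0.43 by counts.

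The wider pathway held both abundant genes and genes with no reads. Of 30 other iron genes, 13 were detected and 10 had 0 counts in both libraries, which allows up to 0.0484 CPM (counts scaled to the library total) in replicate 1 and 0.0372 CPM in replicate 2. The exact test called 0 of the 14 tested, against 5.76% of all tested genes. Without the fold requirement 2 were higher in replicate 2, 8 were higher in replicate 1 and 4 did not pass. Over all tested genes the share was 32.4% in each direction, by a test that knows counting error only. All 6 genes for delivery inside the cell and entry to mitochondria were detected, with a median of 82.8 and 98.7 TPM. They included Pcbp1 and Pcbp2, chaperones that hand iron to ferritin, at 1197 ± 210 and 135 ± 26.1 TPM. The mitochondrial importers Slc25a37 (mitoferrin 1, the erythroid form) and Slc25a28 (mitoferrin 2) were at 19.2 ± 0.488 and 50.1 ± 1.62, and Abcb10, a partner of mitoferrin 1, at 20.9 ± 2.1. The lysosomal channel Mcoln1 was at 176.44 and 146.18 TPM on 2601 and 3014 counts. Slc25a28 had more counts (3744 and 4949) at lower TPM, so the Mcoln1 level rests on a shorter effective length. Mcoln1 is among the values above the median of the 6 genes, which therefore depends on that length.

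Of the 11 genes of the transferrin cycle and other iron entry, 3 were detected. Snx3 and Exoc6, which act in recycling of the transferrin receptor, were at 281 ± 10.8 and 32.5 ± 1.17 TPM, and the metal transporter Slc39a8 at 27 ± 3.43. Steap1, Steap2 and Steap4, the relatives of Steap3, had 0 counts in both libraries, as did the transporter Slc39a14 and melanotransferrin (Meltf), and transferrin itself (Trf) was at 0.12 ± 0.113 TPM. Of 6 genes of iron sensing and hormone control, only Fbxl5, the iron-sensing subunit of the ligase that marks IRP2 for degradation, was detected, at 19.2 ± 1.52. Hepcidin (Hamp), the liver hormone that removes ferroportin, and its regulators Bmp6 and Tmprss6 had 0 counts. Of 4 genes of oxidation and export, only the haem exporter Flvcr1 was detected, at 8.45 ± 0.219 TPM.

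Among 4 other genes whose mRNAs are known for an iron-responsive element, Cdc14a was at 9.31 ± 0.0636 and Cdc42bpa at 8.1 ± 0.099. Alas2, the erythroid enzyme that begins haem synthesis, was at 0.435 ± 0.205 TPM, and Epas1 had 0 counts. The search found a hairpin with 5 of 5 pairs in the 5' UTR of Alas2 and matches with 4 of 5 pairs in the 3' UTR of Cdc14a, in 2 of its 7 transcripts. It found none with the loop CAGTGN in Cdc42bpa or Epas1.

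Levels of the iron genes ran with base composition. Spearman's rho between the GC content of the transcript with most counts and mean TPM was 0.84 over the 10 genes and 0.35 over 9067 detected genes. These values are descriptions across genes that share the same libraries and their preparation. With detected genes cut into 5 equal groups by GC content, the median level was 6.28 and 7.85 TPM in the group of lowest GC content and 42.8 and 42 TPM in the group of highest. Of the 5 iron genes under 10 TPM, Ireb2, Tfrc, Slc40a1 and Ncoa4 had GC contents of 39.0%, 39.8%, 43.5% and 43.8%, all in the lowest group, under 45.9%. Within that group they stood at percentiles 14.2, 55.4, 23.3 and 28.6. The other, Slc11a2, had a GC content of 50.4% and was in the middle group, at percentile 20.4 of it. Fth1, the highest of the 10, was in the same middle group, with 53.4% and percentile 100, as was Aco1 with 52.1% and percentile 63.3. Steap3, with 55.4%, stood at percentile 74.8 of the next group, and Tfr2 and Ftl1 were in the highest group, at percentiles 59.8 and 99.7 of it. The part of base composition in the levels was not tested.

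**Figure D4:**
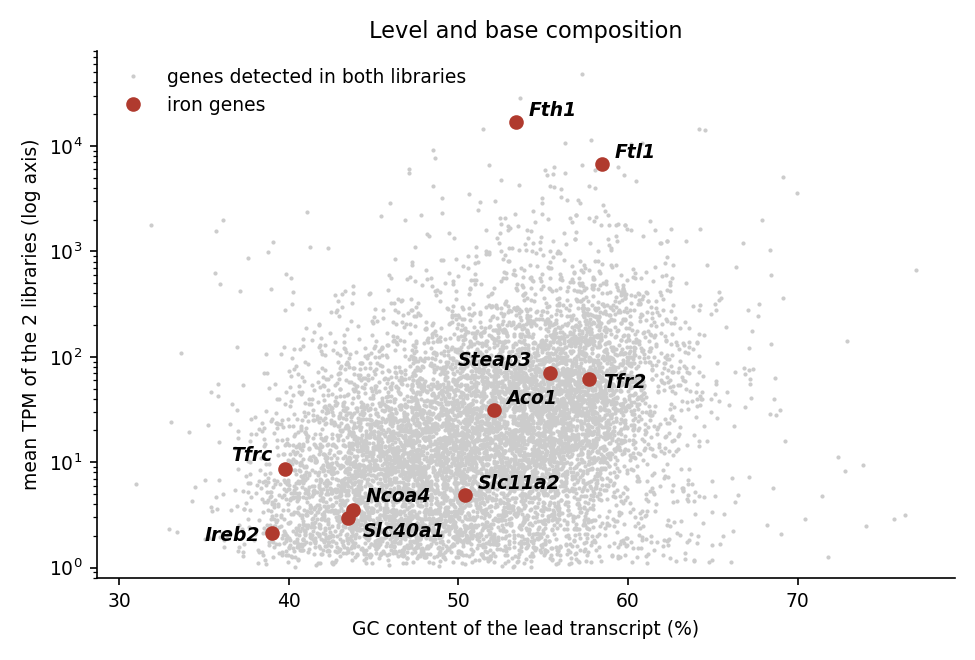
Mean TPM (log axis) against GC content of the transcript with most counts (percent) for genes detected in both libraries (grey) and the 10 iron genes (red). The iron genes of lowest GC content, Ireb2 at 39.0% and Tfrc at 39.8%, lie under 10 TPM, and Tfr2 and Ftl1 (57.7% and 58.5%) lie far higher, while Slc11a2 and Fth1, at 50.4% and 53.4%, lie far apart.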

How the data were processed

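Each library came with 2 tables, for genes and for transcripts, made by the authors on mm10 with annotation M4, per the deposited descriptions. Which aligner and counter made them is not given in the sources used here. Per the file headers, the values are expected counts (a model splits reads that several features share, hence fractions), TPM, posterior mean TPM with interval bounds, effective length, and the percent of a gene's TPM given to each transcript. Strand use in counting was not checked, so overlapping antisense RNA cannot be told apart.

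Genes were matched by identifier to symbols and positions in GENCODE M21 on the same assembly (42462 of 43346), and Tf and Hjv through RefSeq synonyms to Trf and Hfe2. Of the 47 transcripts of the 10 genes, 41 matched M21 by identifier and length, 2 by identifier with another length (Fth1 and Ireb2) and 4 by gene and length alone (Ftl1). Expected counts were rounded, and genes with 10 or more in at least 1 library were tested (11636) with TMM factors of 0.96 and 1.04 from edgeR 4.0.16 (R 4.3.3); the exact binomial test, Benjamini-Hochberg adjustment, hairpin search and plots used SciPy 1.17.1, NumPy 2.4.6 and pandas 2.3.3 in Python 3.11.15, with matplotlib 3.10.9. The exact binomial test was tried on simulated data with 200 changed genes. Those data held counting error only, with no further spread between libraries, so they do not show how the test fares with such spread. The exact binomial test and the limit of 3 counts for a count of 0 cover only counting error, as no molecular identifiers are described.

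The named genes are the 10 members and each of their transcripts with 5% or more of the gene's TPM in either library; other pathway genes and markers of erythroid cells, macrophages and hepatocytes are given as counts with examples, and some listed genes are not reported here. The members and lists were chosen with earlier results of these data known. Alternatives were posterior mean TPM, fixed lengths, ferritin copies, another total, looser and stricter hairpins, shares of counts, DESeq2 1.42.0 size factors or total counts, other filters and folds, edgeR's exact test, and leaving out each library. No protein or promoter sequence was used here.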

Additional observations from a re-analysis of the deposited data

How the results depend on the processing

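No signed ratio changed sign, but the order of levels did. Of 30 alternatives to the main results, 23 stayed within 1 SD between the libraries, or within 1.5 times for a count, and 7 moved more; for single gene levels the numbers were 10 and 11 of 21. Settings that leave out a library are not counted, because with 2 libraries they lie within 1 SD by construction. Counts per fixed length raised the log2 ratio of Fth1 to Ftl1 from 1.34 to 1.92 and the ferritin share of TPM from 2.36% to 3%, and scaled single gene levels by 0.582 to 1.64 times; they put Steap3 (41.1, with a longest model of 5158 bases) below Aco1 (50.3) and Tfr2 (97.7). The Slc11a2 hairpin share, 38% of TPM, was 49.3% of counts, and 0 when 5 of 5 stem pairs were required, an alternative chosen after seeing the data, since its only match has 4. The Slc40a1 hairpin share, 84% of TPM, was 73.5% by posterior mean TPM and 98.5% of counts. The count of iron genes called was 0 under 6 alternatives and 8 without the fold requirement. The 6 include edgeR's test, whose spread came from these same libraries. Over all genes the 670 calls became 673 with DESeq2 size factors, 799 with total counts, 726 with no count filter, 421 with a minimum of 50, 175 at 4-fold and 113 with edgeR's exact test.

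With 1 library left out, the remaining value has no spread: the log2 ratio of Fth1 to Ftl1 ran from 1.25 to 1.42, of Tfr2 to Tfrc from 2.41 to 3.83 and of Aco1 to Ireb2 from 3.83 to 3.9; the ferritin share from 2.19% to 2.54%; and the hairpin shares from 34.2% to 41.9% (Slc11a2) and from 79% to 88.9% (Slc40a1). Tfrc was 3.42 TPM without replicate 2 and 13.8 without replicate 1. No paired analysis was possible because the libraries form 1 group. With 2 libraries from 1 cell sample, the SDs have little precision, and at a few counts per short model, shares of TPM rest on single reads.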
